A study of Mus musculus with 12 samples.

Results

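Epcam, Cdh1, Muc1, Msln, Erbb2, Dpp4, Cxcl15 and Dock9 are 8 genes that were read here as a measure of tumour or airway epithelial RNA in immune cells purified from mouse lung tumours. They were taken by symbol from a panel of 770 genes, and all 8 were found. The genes had been chosen by their signals in earlier readings of these data, namely both drugs against vehicle in T cells and macrophages against T cells. T cells and macrophages had been purified from suspensions of lung tumours of a genetically engineered mouse model on a mixed background, and their total RNA was counted with NanoString probes. Treatment was with vehicle, with the bromodomain inhibitor JQ1, or with ricolinostat, which inhibits histone deacetylase 6. The 6 groups are T cells under vehicle, T cells under JQ1, T cells under ricolinostat, macrophages under vehicle, macrophages under JQ1 and macrophages under ricolinostat, with 2 libraries each. All groups share the tumour model. The age of the animals, the doses, the length of treatment and the way the cells were purified are not given in the sources used here. Nothing in the labels ties the 2 libraries of a group to separate animals, so the p-values below measure only how libraries vary, which may be technical.

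Epithelial cells of the lung line the airways and the alveoli, and lung adenocarcinomas arise from them. Such cells hold together through E-cadherin (Cdh1) and the adhesion molecule Epcam and carry the mucin Muc1 on their free surface. T cells and macrophages belong to the blood lineage, in which Epcam and Muc1 are usually low, although some dendritic cells carry Epcam and some macrophages carry E-cadherin. Dpp4 is no marker of epithelium alone, since activated T cells carry it too, and Dock9 is found in many cell types.

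The promoters of Muc1, Epcam and Cxcl15 are shown because these genes stand for the surface, the adhesion and the secreted part of the set and moved together between the cell types. They are RefSeq sequences of build GRCm38.p6, the 250 bases before the start of the gene on its plus strand, and 6 of the 8 genes had such a window. Capitals mark the TATA box TATAAA, the GC box GGGCGG and the E-box CACCTG, each searched on both strands, and the matches do not overlap each other.
Muc1, chr3:89228806-89229055, plus strand: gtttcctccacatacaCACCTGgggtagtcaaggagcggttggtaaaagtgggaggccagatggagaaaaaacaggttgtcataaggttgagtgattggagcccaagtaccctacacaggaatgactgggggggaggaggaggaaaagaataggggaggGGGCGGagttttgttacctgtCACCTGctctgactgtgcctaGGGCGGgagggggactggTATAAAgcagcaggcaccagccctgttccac
Epcam, chr17:87635729-87635978, plus strand: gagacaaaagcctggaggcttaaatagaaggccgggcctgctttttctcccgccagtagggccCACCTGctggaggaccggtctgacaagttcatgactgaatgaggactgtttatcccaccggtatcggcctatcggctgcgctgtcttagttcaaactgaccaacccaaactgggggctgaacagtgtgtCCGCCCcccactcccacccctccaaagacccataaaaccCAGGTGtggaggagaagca
Cxcl15, chr5:90794284-90794533, plus strand: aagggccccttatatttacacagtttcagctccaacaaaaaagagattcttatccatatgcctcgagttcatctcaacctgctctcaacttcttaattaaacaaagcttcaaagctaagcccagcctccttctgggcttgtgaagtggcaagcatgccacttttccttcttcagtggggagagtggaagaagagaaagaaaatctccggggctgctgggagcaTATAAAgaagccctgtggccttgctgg
The Muc1 window held 1 TATA box, 2 GC boxes and 2 E-boxes, the Epcam window 1 GC box and 2 E-boxes, and the Cxcl15 window 1 TATA box and neither of the other motifs. Among all 32851 windows of this length 12.4% held the TATA box, 32.7% the GC box and 17.2% the E-box. A match describes the letters of the window only.

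The values are normalised signals on a linear scale, and a signal of 20 or less is called background here. Counts above background, estimated from the spacing of the low values, were 1454800 to 2082200 per T cell library and 773600 to 1542200 per macrophage library. Ricolinostat replicate 2 departed from the other libraries in T cells and in macrophages alike. Over the 20 housekeeping genes, the log2 difference between replicates had an SD of 2.10 and 2.66 under ricolinostat in T cells and macrophages, against 0.124 to 0.199 in the other 4 groups. The ricolinostat differences and medians below are therefore given with and without these libraries, and counts of non-overlapping groups with them.

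The labelled cell types were checked with 14 T cell and 12 macrophage markers. All 14 T cell markers exceeded 20 in the vehicle and ricolinostat T cell libraries, but 2 and 4 of them did so in the JQ1 T cell libraries, where Cd3e read 4.42 and 1.55 and Thy1 2.99 and 2.29. The summed T cell marker signal was 5191 to 5387 under vehicle, 3168 to 3454 under ricolinostat and 181 to 192 under JQ1 in T cells, and it was 136 to 629 among macrophages. By these markers the libraries labelled JQ1-treated T cells were near the macrophage libraries. Macrophage markers summed to 816981 to 1369126 per T cell library and 1156519 to 1288251 per macrophage library, so they were abundant in both. Few of the 12 carried these sums. Their median was 3480 to 5118 in T cell libraries and 4604 to 5626 in macrophage libraries, leaving out ricolinostat replicate 2. In that replicate it was 17070 in T cells, where the sum was lowest, and 26480 in macrophages. In such bulk libraries fewer cells of a type and less RNA per cell cannot be told apart.

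**Figure D1:**
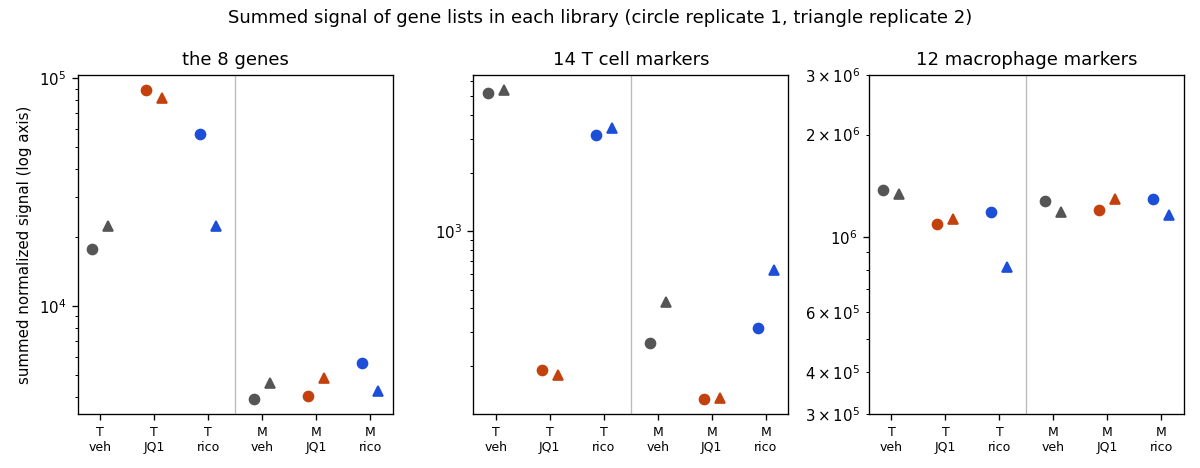
Summed normalised signal, on a log axis, of the 8 genes, of 14 T cell markers and of 12 macrophage markers in each of the 12 libraries. T and M stand for T cells and macrophages, veh for vehicle and rico for ricolinostat, circles for replicate 1 and triangles for replicate 2. The 8 genes sum to 81686 and 88500 in the JQ1 T cell libraries, where the T cell markers sum to 181 and 192.

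Epcam, the epithelial cell adhesion molecule, had a T cell signal of 1561 and 1562 with vehicle, 4468 and 4066 with JQ1, and 3160 and 258 with ricolinostat. Its macrophage signal was 153 and 607 with vehicle, 91.5 and 191 with JQ1, and 325 and 135 with ricolinostat. The T cell libraries were higher except for ricolinostat replicate 2, which fell within the range of the macrophage libraries. Vehicle macrophages were the least even group among the 4 outside ricolinostat, with 380 ± 321 (SD, n = 2).

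Cdh1 encodes E-cadherin, the calcium-dependent adhesion protein of epithelial junctions. In T cells its signal was 3784 and 4182 with vehicle, 6852 and 7381 with JQ1, and 5776 and 2486 with ricolinostat. In macrophages it was 3406 and 3576 with vehicle, 3534 and 3945 with JQ1, and 3555 and 2068 with ricolinostat. Every macrophage library held Cdh1 far above background. JQ1 lay above vehicle in T cells, and the macrophage groups overlapped.

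Muc1, a membrane-bound mucin of epithelial surfaces, gave 1097 and 1621 in T cells with vehicle, 4926 and 4649 with JQ1, and 4890 and 5705 with ricolinostat. Macrophages gave 112 and 134 with vehicle, 36.5 and 75.6 with JQ1, and 248 and 423 with ricolinostat. Every T cell library exceeded every macrophage library. In macrophages the order was ricolinostat, vehicle, JQ1 without overlap, and in T cells both drugs lay above vehicle.

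Msln encodes mesothelin, a surface glycoprotein of mesothelium and of many carcinomas. T cells gave 132 and 303 with vehicle, 1351 and 749 with JQ1, and 630 and 431 with ricolinostat. Macrophages gave 25.3 and 38.3 with vehicle, 36.5 and 44.3 with JQ1, and 54.3 and 75.4 with ricolinostat. All T cell libraries were above all macrophage libraries, and the latter lay close to background.

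Erbb2, a receptor tyrosine kinase of epithelial and carcinoma cells, had T cell signals of 269 and 210 with vehicle, 693 and 601 with JQ1, and 511 and 1981 with ricolinostat. The macrophage signals were 16.6 and 28.2 with vehicle, 21.7 and 27.5 with JQ1, and 93.0 and 927 with ricolinostat. Ricolinostat replicate 2 was the highest library of each cell type, and the macrophage one exceeded the vehicle and JQ1 T cell libraries.

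Dpp4, the surface dipeptidase CD26, measured 604 and 667 in T cells with vehicle, 2544 and 2579 with JQ1, and 1882 and 4833 with ricolinostat. Among macrophages it measured 25.3 and 33.2 with vehicle, 19.6 and 15.4 with JQ1, and 75.4 and 461 with ricolinostat. The JQ1 T cell libraries, in which Cd3e and Thy1 were at background, were thus above both vehicle T cell libraries for Dpp4. JQ1 macrophages were at background.

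Cxcl15, also called lungkine, is a chemokine of the mouse airway epithelium. Its T cell signal was 10003 and 13528.5 with vehicle, 66115.5 and 60816.5 with JQ1, and 38939 and 4800 with ricolinostat. Macrophages measured 161 and 169 with vehicle, 257 and 518 with JQ1, and 1204 and 112 with ricolinostat. Both replicate 2 libraries under ricolinostat were the lowest of their cell type, and all T cell libraries exceeded all macrophage libraries.

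Dock9, an exchange factor that activates the small GTPase Cdc42, had 397 and 326 in T cells with vehicle, 1552 and 844 with JQ1, and 1030 and 1862 with ricolinostat. Macrophages had 16.6 and 23.2 with vehicle, 19.6 and 15.4 with JQ1, and 47.3 and 53.2 with ricolinostat. Macrophages thus held Dock9 above background in both ricolinostat libraries and in 1 of the other 4.

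**Figure D2:**
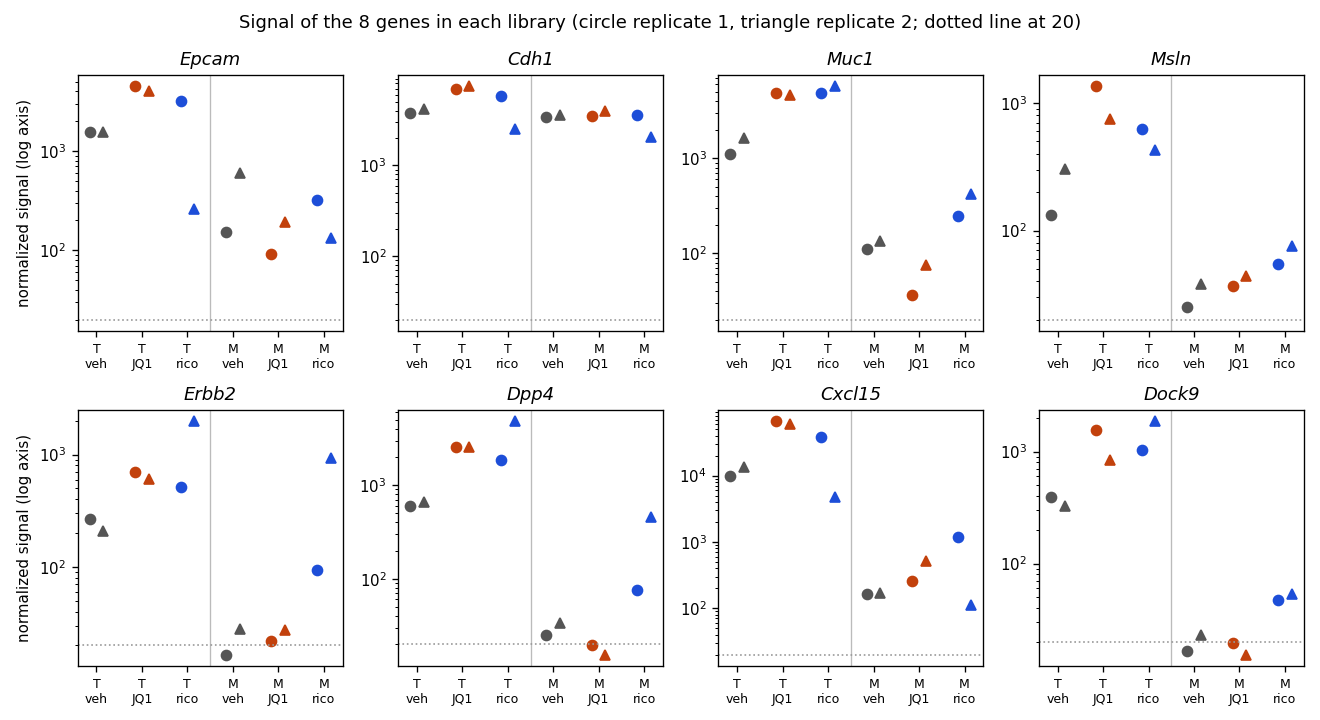
Normalised signal, on a log axis, of each of the 8 genes in the 12 libraries, with T and M for T cells and macrophages, veh for vehicle and rico for ricolinostat. Circles are replicate 1, triangles replicate 2, and the dotted line marks a signal of 20. Cdh1 reads 2068 to 3945 in the macrophage libraries, while Dock9 and Dpp4 lie at or below 20 there under JQ1.

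The gap between the cell types differed among the 8 genes. They were chosen with this contrast in view, so it is given as a description. On the scale of log2(signal + 1) the mean macrophage minus T cell difference under vehicle was -6.13 for Cxcl15, -4.41 for Dpp4, -4.13 for Dock9, -3.43 for Muc1, -3.40 for Erbb2, -2.65 for Msln, -2.35 for Epcam and -0.19 for Cdh1. Cdh1 was thus nearly level between the fractions, while Cxcl15 differed 70.0-fold. The gap was wider under JQ1, with a median log2 difference over the 8 genes of -5.48 against -3.42 under vehicle. The median over all genes measured above background in these comparisons was 0.20 and -0.03. Dpp4 and Dock9 stood at background in JQ1 macrophages, so their differences there are bounds, at least 122-fold and 54.5-fold. Holding the background groups at 20 changed the JQ1 median to -5.38. Under ricolinostat the median was -3.51, or -3.91 without replicate 2, and the difference for Erbb2 was -1.77 with all libraries and -2.45 without replicate 2. Over the 3 treatments 5 of the 8 genes, Muc1, Msln, Dpp4, Cxcl15 and Dock9, were lower in each macrophage library than in every T cell library, and 6.53% of the 659 genes tested showed the same. None was higher in every macrophage library, as 1.97% of genes were. This count is a consequence of how the genes were chosen.

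All 8 genes were higher in both JQ1 than in both vehicle T cell libraries. The genes were chosen with this contrast in view too. The log2 difference of JQ1 from vehicle was 2.45 for Cxcl15, 2.32 for Msln, 2.01 for Dpp4, 1.84 for Muc1, 1.67 for Dock9, 1.45 for Epcam, 1.44 for Erbb2 and 0.84 for Cdh1. The median was 1.75, beside -0.38 over all 630 genes tested, and 13.2% of those genes lay above both vehicle libraries in both JQ1 libraries while 54.6% lay below. As group means, Cxcl15 went from a vehicle mean of 11766 ± 2493 (SD, n = 2) to a JQ1 mean of 63466 ± 3747 (SD, n = 2), and Dpp4 was 635 ± 44.5 (SD, n = 2) and 2562 ± 24.9 (SD, n = 2). The replicates of these genes were close compared with the gap between the groups. In the same libraries the T cell marker sum was 181 to 192 against 5191 to 5387 under vehicle and the macrophage marker sum 1091575 to 1131361 against 1334675 to 1369126. The median macrophage marker read 3480 and 3555 against 4790 and 5118. Dendritic cell markers summed to 87 to 95 against 789 to 853. What these shifts contribute to the difference was not tested.

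Ricolinostat split the 8 genes in T cells. Muc1, Msln, Erbb2, Dpp4 and Dock9 were above both vehicle libraries in both ricolinostat libraries, as were 9.52% of the 630 genes tested (28.7% were below), and this contrast was in view when the genes were chosen. Their log2 differences were 1.98, 1.38, 2.08, 2.25 and 1.94, and 1.87, 1.65, 1.10, 1.57 and 1.52 without replicate 2. Epcam, Cdh1 and Cxcl15 had -0.79, -0.07 and 0.23 with all libraries and 1.02, 0.54 and 1.74 without replicate 2. All 8 genes were thus above vehicle in ricolinostat replicate 1, while Epcam, Cdh1 and Cxcl15 were below vehicle in replicate 2. The T cell marker sum was 3168 and 3454 in these libraries, lower than under vehicle, and its part in the difference was not tested.

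**Figure D3:**
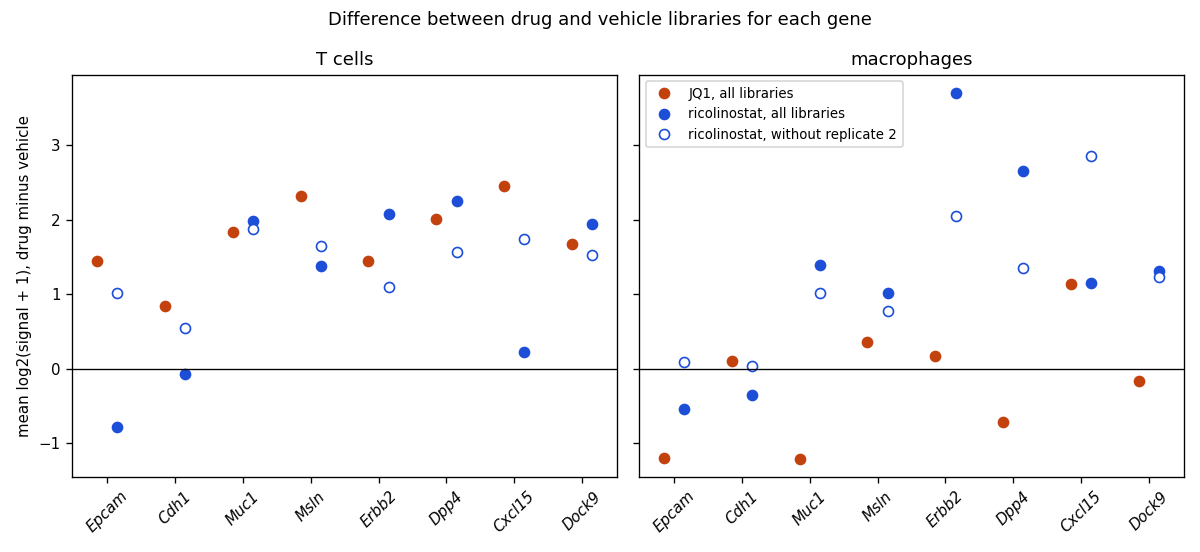
Mean of log2(signal + 1) under each drug minus that under vehicle for each gene, in T cells at left and macrophages at right. Filled points use both libraries of each group and open points leave out ricolinostat replicate 2. Under JQ1 the 8 genes lie between 0.84 and 2.45 in T cells and between -1.21 and 1.14 in macrophages.

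Ricolinostat was compared directly with JQ1 in T cells with limma, a linear model with moderated variances, on log2(signal + 1). P-values were two-sided and adjusted by the Benjamini-Hochberg method over all genes tested. Ricolinostat minus JQ1 is the difference of the T cell contrasts of each drug with vehicle, which were in view in the choice of genes. Its p-values for the 8 genes are therefore given as a description. None of the 8 genes passed an adjusted p of 0.05, where 19 of 630 genes (3.02%) did, 18 higher (2.86%) and 1 lower (0.159%). None of the 8 had an unadjusted p below 0.05, where 78 of 630 (12.4%) had. Epcam at -2.24 ± 1.16 (SE), with adjusted p = 0.482, and Cxcl15 at -2.21 ± 1.01 (SE), with adjusted p = 0.437, had the largest differences by limma. Epcam, Cdh1, Msln and Cxcl15 were lower in both ricolinostat than in both JQ1 libraries, as were 11.6% of all genes tested, and none of the 8 was higher in both, as 33.7% were. Without replicate 2 the log2 differences of Epcam and Cxcl15 were -0.43 and -0.70, so their size came largely from that library. With replicate 2 as the lone ricolinostat library, which assumes that it varies like the other groups, limma called Epcam, Cdh1 and Cxcl15 lower and Erbb2 and Dpp4 higher, beside 260 genes higher and 146 lower of 624, so the share of the 8 was near that of all genes. With replicate 1 alone it called none of the 8.

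JQ1 was compared with vehicle in macrophages in the same way. The 8 genes had a median log2 difference from vehicle of -0.03, beside -0.20 over 564 genes tested, with 4 genes positive and 4 negative. All 8 passed the filter of 2 libraries above 20, Dock9 through 1 vehicle and both ricolinostat libraries. Limma called 0 of the 8 genes and 0 of 564 (0%), with 7 of 564 (1.24%) and none of the 8 at an unadjusted p below 0.05. The limma adjusted p was 0.999 for each of the 8. The fit takes its spread from all 6 macrophage libraries, so the wide gap between the ricolinostat replicates enters these p-values and SEs. Muc1 was lower in both JQ1 libraries, 56.0 ± 27.6 (SD, n = 2) against 123 ± 15.3 (SD, n = 2), with a log2 difference of -1.21 ± 0.69 (SE). Dpp4 was at least 1.43-fold lower, at background under JQ1, and Cxcl15 was higher in both JQ1 libraries at 1.14 ± 1.20 (SE). Separation by itself was common, since 41% of all genes tested were lower and 10.6% higher in both JQ1 than in both vehicle libraries. An effect of JQ1 on these genes in macrophages was not detected, which does not show its absence.

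Ricolinostat macrophages held more signal of several of the 8 genes than vehicle macrophages, without a call. Muc1, Msln, Erbb2, Dpp4 and Dock9 were higher in both ricolinostat than in both vehicle libraries, beside 12.6% of the 564 genes tested, and none was lower in both, beside 15.2%. Limma called 0 of the 8 and 0 of 564 (0%), while Erbb2 and Dpp4 were among 16 of 564 (2.84%) with an unadjusted p below 0.05. Erbb2 had a log2 difference of 3.70 ± 1.16 (SE, limma adjusted p = 0.570), Dpp4 2.65 ± 0.97 (SE, limma adjusted p = 0.570), Muc1 1.39, Dock9 1.31, Cxcl15 1.15 and Msln 1.02. Epcam and Cdh1 had -0.54 and -0.36. Leaving out replicate 2 gave 2.05 for Erbb2, 1.35 for Dpp4, 1.01 for Muc1, 1.23 for Dock9, 2.86 for Cxcl15, 0.78 for Msln, 0.09 for Epcam and 0.03 for Cdh1, with no gene called. The lone library left then is taken to vary like the other groups. With replicate 2 as the lone ricolinostat library the log2 difference was 5.36 for Erbb2, 3.94 for Dpp4, 1.39 for Dock9 and 1.25 for Msln. Cdh1 had -0.75 and Cxcl15 -0.55. Dock9 passed the filter only with the ricolinostat libraries, where it was high, so its tests support nothing. In the same macrophage libraries the T cell marker sum was 316 and 629 under ricolinostat against 266 and 431 under vehicle, so the groups overlapped, and its part was not tested.

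The same 5 genes, Muc1, Msln, Erbb2, Dpp4 and Dock9, were higher in both ricolinostat than in both JQ1 macrophage libraries, as were 27.3% of genes tested, and none was lower in both, as 9.57% were. This comparison shares the ricolinostat libraries with the one against vehicle. Limma called 0 of the 8 and 0 of 564 (0%), with Muc1, Erbb2, Dpp4 and Dock9 among 35 of 564 (6.21%) at an unadjusted p below 0.05. Dock9 entered the test through the ricolinostat libraries, where it was high, so its p supports nothing. Dpp4 was at least 8.94-fold and Dock9 at least 2.43-fold higher, both against background under JQ1, and Muc1 had a log2 difference of 2.60 ± 0.69 (SE), each with limma adjusted p = 0.584. Without replicate 2 the bounds were 3.64-fold for Dpp4 and 2.3-fold for Dock9, and Muc1 had 2.21. The Dpp4 bound thus rested largely on replicate 2. With that replicate alone the log2 difference was 5.19 for Erbb2, 4.65 for Dpp4, 2.99 for Muc1 and 1.56 for Dock9. Cdh1 had -0.85 and Cxcl15 -1.69.

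Ratios between the 8 genes within a library describe whether they kept their proportions, free of the scaling of that library. In the 5 T cell libraries other than ricolinostat replicate 2, the signal of Erbb2 over that of Epcam stayed between 0.134 and 0.173 and that of Dpp4 over Epcam between 0.387 and 0.634. Muc1 over Epcam lay between 0.703 and 1.55 there, against 0.221 to 0.762 in the corresponding 5 macrophage libraries. Cdh1 over Epcam parted the fractions, with 1.53 to 2.68 in those T cell libraries and 5.89 to 38.6 in those macrophage libraries. Cxcl15 over Epcam was 6.41 and 8.66 under vehicle, 14.8 and 15 under JQ1 and 12.3 in ricolinostat replicate 1 in T cells, and 0.279 to 3.70 in macrophages. Dpp4 over Epcam was 0.0548 to 0.232 in those macrophage libraries. The ranges of Cdh1, Cxcl15 and Dpp4 over Epcam thus did not overlap between the cell types. Those of Muc1, Erbb2, Msln and Dock9 did. Erbb2 had 0.0465 to 0.286 in those macrophage libraries, and Msln had 0.0631 to 0.399 there against 0.0848 to 0.302 in T cells. Several of these macrophage signals were near background. Ricolinostat replicate 2 of T cells lay outside these ranges, with Erbb2 over Epcam at 7.67 and Muc1 over Epcam at 22.1.

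**Figure D4:**
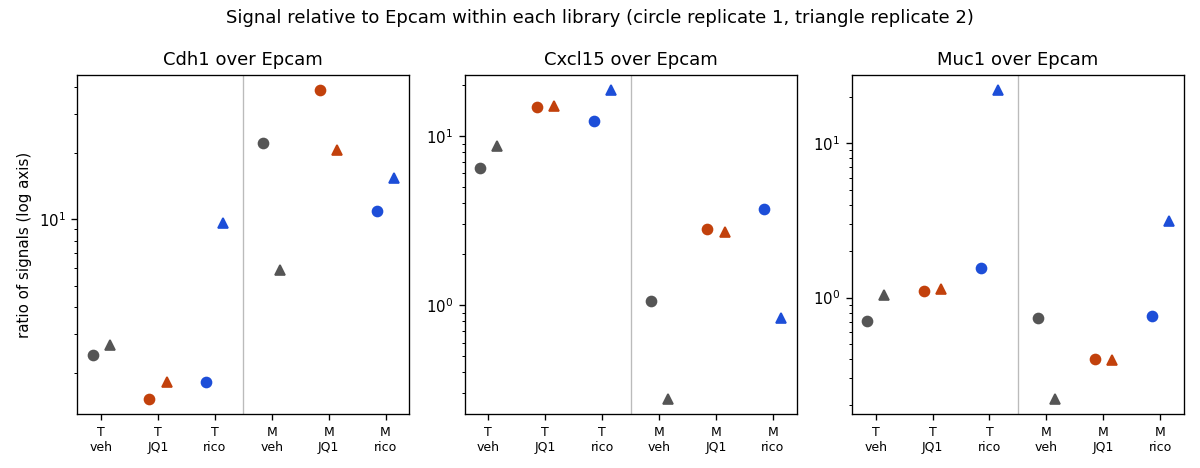
Ratio of the signal of Cdh1, Cxcl15 or Muc1 to that of Epcam within each library, on a log axis, with T and M for T cells and macrophages, veh for vehicle and rico for ricolinostat. Circles are replicate 1 and triangles replicate 2. Cdh1 over Epcam is 1.53 to 2.68 in 5 T cell libraries, 9.62 in T cell ricolinostat replicate 2, and 5.89 to 38.6 in macrophage libraries.

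Among 651 genes ranked, the 10 whose pattern was nearest to the mean log2 level of Epcam, Cdh1 and Muc1 over the 12 libraries had Pearson correlations of 0.989 to 0.931. They included Lamp3, Pla2g1b, Il34, Il18r1, Lcn2, Cfi, Clu, Cd79b and Mme. These points share their libraries and normalisation and fall into 2 clusters, T cells and macrophages, so the correlations mostly hold the gap between the cell types. Within the 6 T cell libraries the correlation was 0.997 for Lamp3, a lysosomal membrane protein of mature dendritic cells and of alveolar type II cells. It was 0.975 there for Pla2g1b, a secreted phospholipase, and 0.958 for Il18r1, an interleukin-18 receptor chain. The other genes named were lower there, with 0.91 for Clu, 0.881 for Il34 and 0.805 for Cd79b. Mme had 0.792, Cfi 0.764 and Lcn2 0.597. Within the 6 macrophage libraries the genes named ran from 0.895 for Pla2g1b to 0.212 for Cd79b. Lamp3 measured 1561 and 1803 in T cells with vehicle, 6661 and 7318 with JQ1, and 5945 and 1228 with ricolinostat, and 21.7 to 216 in macrophage libraries. Cd79b, a chain of the B cell receptor complex, read 63.9 to 190 in the T cell libraries other than ricolinostat replicate 2, while its partner Cd79a was at background in all 12 libraries. Of these 10 genes 6 remained among the nearest 10 by Spearman correlation and 5 without both ricolinostat replicate 2 libraries.

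**Figure D5:**
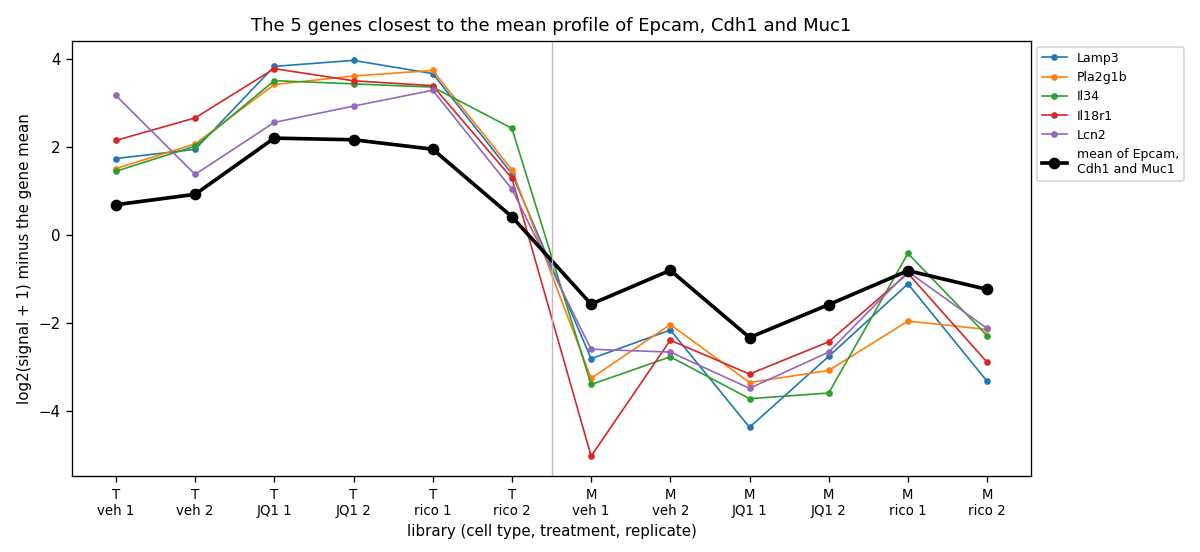
Log2(signal + 1) minus the mean over 12 libraries for the 5 genes closest to the mean profile of Epcam, Cdh1 and Muc1, which is drawn in black, with T and M for T cells and macrophages, veh for vehicle and rico for ricolinostat. Lines join the values of 1 gene and imply no order of libraries. Lamp3, with a correlation of 0.989, runs from 21.7 in a macrophage library to 7318 in a JQ1 T cell library.

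A wider list of 42 epithelial genes outside the 8 had 16 members on the panel. Of 14 tested between the cell types, limma called 8 lower in macrophages, beside 110 of 659 genes (16.7%), and 1 higher, beside 14 of 659 (2.12%). The list was chosen with earlier results of these data known. Il34, Itgb4 and Mst1r were among those that passed the filter only through T cell libraries, where they were high. Spink5 passed it only through macrophage libraries, so the calls of such genes support nothing. At an unadjusted p below 0.05 limma had 11 of the 14, beside 27% of all genes. Over all genes the higher and lower calls were 43 and 86 with libraries centred on their medians, 59 and 60 with quantile normalization, and 115 and 165 with the replicate block, under which 10 of the 14 were lower and 1 higher. Lcn2, lipocalin-2, had a log2 difference of -4.78 (limma adjusted p = 2.66e-04). Il34, an epithelial ligand of the CSF1 receptor, was at background in vehicle and JQ1 macrophages. It was at least 6.5-fold and 21.6-fold lower there than in T cells. Itgb4, the integrin chain of hemidesmosomes, was at background in these macrophages too, at least 6.99-fold and 13.9-fold lower. Spink5, a serine protease inhibitor of epithelia, was the gene called higher. It was at background in all T cell libraries, at most 17.2, and read 45.5 to 219 in vehicle and JQ1 macrophages, but 100 and 8.74 with ricolinostat, so that its replicate 2 lay below several T cell libraries. It was at least 4.82-fold higher in macrophages under vehicle and 3.14-fold under JQ1, and the call ended when any 1 of 9 of the 12 libraries was left out. Without both ricolinostat replicate 2 libraries 11 were lower and 1 higher, and quantile normalization left 5 lower.

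Under JQ1 in T cells 12 of 13 tested genes of that list were above vehicle in the mean, with a median log2 difference of 1.20 beside -0.38 over all genes. Limma called 0 of 13 (35 of 630 genes, 5.56%, all lower). Leaving out ricolinostat replicate 1 or replicate 2 takes the gap between them out of the fit. Either step added calls, all higher in this list and in both directions over all genes. The number added was the same for either library. The 0 of 13 thus held only with both ricolinostat libraries in the fit. Foxj1, a transcription factor of ciliated airway cells, had 2.40, reading 68.6 and 132 under JQ1 and 22.8 and 13.1 under vehicle, and the neutrophil attractant Cxcl5 had 1.77. Dmbt1, a secreted mucosal scavenger protein, had 2.41, which rested on 1 library, with 1463 in JQ1 replicate 2 and 37.2 in replicate 1. Egfr, the epidermal growth factor receptor, was the gene with a negative difference, at background under JQ1 and at least 1.62-fold lower, which rested on 81.5 in vehicle replicate 1 where replicate 2 read 13.1. Under ricolinostat in T cells limma called 0 of 13 and 0 of 630 genes (0%), with 18 of 630 and 0 of the 13 at an unadjusted p below 0.05. The receptor tyrosine kinase Mst1r was at background under vehicle and at least 4.76-fold higher, or 1.47-fold without replicate 2. The adhesion molecule Ceacam1 had a log2 difference of -3.81, or 0.24 without replicate 2. Both rested on that library, which read 323 and 2.36 where replicate 1 read 29.8 and 923. Against JQ1, ricolinostat T cells had 11 of 13 negative, or 9 without replicate 2, and 0 called by limma, with Cxcl5 alone at an unadjusted p below 0.05. The median log2 difference over all genes tested was 0.46, or 0.13 without replicate 2. In macrophages limma called 0 of 8 tested genes of this list in each of the 3 drug comparisons, and 0 of the 8 had an unadjusted p below 0.05. Under JQ1 all 8 were below vehicle in the mean, with Dmbt1 at -1.81, the protease-activated receptor F2rl1 at -1.78 and the nectin Pvrl2 at -0.68. Their median was -0.59, beside -0.20 over all 564 genes tested. Of all genes, 41% were lower and 10.6% higher in both JQ1 than in both vehicle libraries. Ricolinostat gave Ceacam1 -3.30, F2rl1 -2.31 and Lcn2 1.15 against vehicle, and -0.24, -0.62 and 1.80 without replicate 2. The lower values of Ceacam1 and F2rl1 thus rested on that library, which read 7.41 for each where replicate 1 read 585 and 85.9.

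Markers of other cells that such fractions could hold moved in their own ways. Stromal and endothelial markers summed in T cells to 12580 and 16961 with vehicle, 13169 and 9028 with JQ1 and 12763 and 68472 with ricolinostat, and in macrophages to 3982 to 67136. The highest values of each cell type were those of ricolinostat replicate 2. Few genes carried these sums, since the median of the 17 was 16.2 to 85.0 in T cell libraries and 4.77 to 15.6 in macrophage libraries. In ricolinostat replicate 2 it was 56.4 in T cells and 7.41 in macrophages, so the sums do not describe the list as a whole. Between 7 and 15 of the 17 exceeded 20 in a T cell library and between 4 and 7 in a macrophage library. The sums did not follow those of the 8 genes, which in T cells were 17847 and 22400 with vehicle, 88500 and 81686 with JQ1 and 56818 and 22357 with ricolinostat, and in macrophages 3916 to 5601. The 8 genes made up 0.426% to 2.98% of the signal of a T cell library and 0.0584% to 0.151% of that of a macrophage library. Neutrophil markers had sums of 2282 to 4453 and 3867 to 9978 in T cells and macrophages, B cell markers to 148 to 298 and 26 to 220, and dendritic cell markers to 789 to 853 with vehicle, 87 to 95 with JQ1 and 322 to 538 with ricolinostat in T cells and 174 to 492 in macrophages. Their part in the levels of the 8 genes was not tested.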

How the data were processed

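T cells and macrophages from mouse lung tumours were measured in 12 libraries. The deposited values are normalised signals, linear and not log, as judged from the values. Per the labels' protocols they come from NanoString, with a normalisation method not given in the sources used here. The low signals are evenly spaced in each library, all within 0.1 of a step, and total signal over the step estimates the counts above background. Whole counts were not recovered, so no counting intervals are given. Of 770 symbols 754 matched RefSeq genes of GRCm38.p6, used for names and promoter windows only.

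Using R 4.3.3, limma 3.58.1 fitted a mean for each group to log2(signal + 1), in the 6 libraries of a cell type or in all 12 for macrophages minus T cells. Genes above 20 in at least 2 libraries were tested, without 20 housekeeping genes of the panel, and p-values were Benjamini-Hochberg adjusted at 0.05. The fit was tested on simulated data. Python 3.11.15 with matplotlib 3.10.9 made the plots.

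The 8 genes, the other gene lists and the alternatives were chosen with earlier results of these data known. JQ1 and ricolinostat minus vehicle in T cells and macrophages minus T cells were in view in that choice, so members have no test there. Tests were kept to the 3 drug comparisons in macrophages and ricolinostat minus JQ1 in T cells. The last is the difference of both T cell contrasts in view, so its p-values for the 8 genes are a description. Genes named beyond the 8 come from the 10 with the highest Pearson correlation to the mean of Epcam, Cdh1 and Muc1, of which 1 is not reported here, and up to 3 per direction of the other epithelial list. Il22ra1 is named only for how it passed the filter. Fold bounds hold a group at background at a signal of 20. The last label numbers of T cell and macrophage libraries of a treatment differ by 6 in all pairs, and over 659 genes the members of a pair deviated together from their groups, with correlations of 0.135 (vehicle), 0.25 (JQ1) and 0.79 (ricolinostat), so a replicate block over these pairs was an alternative. The ricolinostat value includes the departure shared by both replicate 2 libraries.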

Additional observations from a re-analysis of the deposited data

Results flagged for a closer look

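Muc1 and Dpp4 moved in opposite directions under JQ1 in the 2 cell types, in every library. In T cells 13.2% of 630 genes tested were higher without overlap, and in macrophages 41% of 564 were lower. The share of genes showing both was not computed. The JQ1 libraries labelled T cells had T cell marker sums of 181 to 192, within the macrophage range of 136 to 629. What this contributes to the contrast was not tested. Muc1 had a log2 difference from vehicle of 1.84 in T cells and -1.21 in macrophages, so that the macrophage effect minus the T cell effect was -3.05. Dpp4 had 2.01 in T cells. In JQ1 macrophages it stood at background, with 19.6 and 15.4 against 25.3 and 33.2 under vehicle. It was at least 1.43-fold lower there, so the difference of -2.72 computed from its signals is not an exact value. Neither difference between cell types was tested, since the T cell comparison was in view when the genes were chosen.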

How the results depend on the processing

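The counts of the 8 genes called stayed at 0 in the 4 tested comparisons with a pseudocount of 10, without the filter, with centring, with quantile normalization and with all 12 libraries in the fit. Leaving out 1 library each in turn gave 0 to 5 called for ricolinostat minus vehicle and minus JQ1 in macrophages and for ricolinostat minus JQ1 in T cells, the 5 always without ricolinostat replicate 1, and 0 for JQ1 minus vehicle in macrophages. The median log2 difference of the 8 genes for JQ1 minus vehicle in T cells was 1.75, and 2.07 with libraries centred on their medians and 2.10 with quantile normalization, where the median of all genes moved from -0.38 to -0.06 and 0.04. For macrophages minus T cells it was -4.03, and -3.62 with centring and -3.54 with quantile normalization, where the median of all genes moved from 0.02 to 0.43 and 0.19. It was -4.03 with the replicate block too, under which 115 in place of 14 of 659 genes were called higher and 165 in place of 110 lower. Without both ricolinostat replicate 2 libraries 130 of 649 were higher and 156 lower. Ricolinostat minus vehicle in T cells ran from 1.24 to 1.85 on leaving out 1 library each, the lowest without vehicle replicate 1.

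Signs turned for several genes. With centring Dock9 had 0.13 for JQ1 minus vehicle in macrophages, Cxcl15 -0.14 for ricolinostat minus JQ1 in macrophages and Muc1 -0.05 for ricolinostat minus JQ1 in T cells. With quantile normalization Dock9 had 0.33 for JQ1 minus vehicle in macrophages, and Muc1 -0.55, Dpp4 -0.31 and Dock9 -0.06 for ricolinostat minus JQ1 in T cells. Leaving out 1 library each, JQ1 minus vehicle in macrophages ran from -0.20 to 0.53 for Erbb2 and -0.40 to 0.07 for Dock9. Ricolinostat minus vehicle in macrophages ran from -1.53 to 0.45 for Epcam, -0.75 to 0.03 for Cdh1 and -0.55 to 2.86 for Cxcl15. Ricolinostat minus JQ1 ran from -1.69 to 1.72 for Cxcl15 in macrophages, and in T cells from -0.34 to 1.62 for Erbb2, -0.44 to 0.92 for Dpp4 and -0.16 to 0.71 for Dock9. The cause of these changes was not tested, and a library left alone in its group is assumed to vary like the other groups. Over all genes, JQ1 minus vehicle in T cells gave 0 higher and 35 lower, and with quantile normalization 0 and 8. The lower calls were lost when any 1 vehicle or JQ1 T cell library was left out. Calls in both directions rose without either ricolinostat library. Ricolinostat minus JQ1 in T cells gave 18 and 1, with quantile normalization 5 and 1, and with a pseudocount of 10 it gave 7 and 0. These calls were lost when any 1 vehicle or JQ1 T cell library was left out, and they rose without ricolinostat replicate 1. Without ricolinostat replicate 1, ricolinostat minus vehicle gave 204 and 171 in T cells and 178 and 183 in macrophages, and ricolinostat minus JQ1 in macrophages 187 and 161, each in place of 0.

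Depth limits the low macrophage values. In 1 library there a single count carries a signal of 7.41, so a Dock9 signal of 53.2 there stands for few counts.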
